A study of Mus musculus with 7 samples.

Results

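The focal adhesion linkers and kinases described here are 10 of the 31531 genes in the deposited table of normalized counts, found by their gene symbols: *Vcl*, *Tln1*, *Tln2*, *Ilk*, *Parva*, *Lims1*, *Ptk2*, *Pxn*, *Zyx* and *Fermt2*. Each symbol matched 1 row. They were measured by RNA sequencing of muscle fibers from E17.5 mouse fetuses, 4 WT and 3 dyW/dyW libraries. The authors describe the samples of each genotype as independent, but the sources used here do not say whether each library came from 1 fetus. The dyW allele disrupts *Lama2*, which encodes the laminin α2 chain, and dyW mice are a model of LAMA2-CMD, a congenital muscular dystrophy. Fetuses of both genotypes came from crosses of heterozygous dyW mice on a C57BL/6 background and received no treatment. The fibers were freed from epaxial muscle, which lies along the back, with dispase II and collagenase A and were collected from a strainer, so cells attached to the fibers or held by the mesh could enter the lysate. The question this comparison addresses is how the loss of a basement membrane laminin changes gene expression in fetal muscle fibers, here for the proteins that tie matrix receptors to the cytoskeleton.

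Focal adhesions are plaques at the cell membrane where integrins, the receptors for laminin, fibronectin and other matrix proteins, are coupled to actin filaments. Talins and kindlins bind integrin tails and switch the receptor on, vinculin reinforces the bond between talin and actin, and the complex of integrin-linked kinase, PINCH and parvin forms a second bridge to actin. Focal adhesion kinase, paxillin and zyxin carry the signals that tension and matrix binding raise. In skeletal muscle the same proteins gather at costameres, which fasten the outer myofibrils to the membrane, and at myotendinous junctions, which bind the laminin α2 chain through the α7β1 integrin.

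The promoters of 2 of the genes are shown, that of *Lims1* because it was higher in dyW below, and that of *Vcl* because it holds a CArG box, the binding motif of serum response factor. Each line holds the 250 bases before the start of the gene's canonical transcript in GENCODE mouse release 39 (build GRCm39), read 5′ to 3′ on the gene's strand. Capitals mark a CArG box, the motif GGAATG bound by TEAD factors, and the E-box CANNTG bound by myogenic factors, all searched on both strands. None of the capitalized matches overlaps another.
Lims1 chr10:58158981-58159230 plus strand: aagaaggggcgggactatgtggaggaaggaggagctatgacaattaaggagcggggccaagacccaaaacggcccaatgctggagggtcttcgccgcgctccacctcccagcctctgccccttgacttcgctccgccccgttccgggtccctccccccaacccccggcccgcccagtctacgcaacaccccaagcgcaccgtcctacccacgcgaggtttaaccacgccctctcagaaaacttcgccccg
Vcl chr14:20979216-20979465 plus strand: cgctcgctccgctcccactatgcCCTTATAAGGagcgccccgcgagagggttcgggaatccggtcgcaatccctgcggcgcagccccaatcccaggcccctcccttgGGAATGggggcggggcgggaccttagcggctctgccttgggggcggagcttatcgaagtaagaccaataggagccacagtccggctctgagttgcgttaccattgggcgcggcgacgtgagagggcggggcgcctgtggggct
The *Vcl* window held a CArG box from base -227 and a TEAD motif from base -143, counted back from the transcript start. The *Lims1* window held none of these letters. Of the windows of 18818 protein-coding genes in the table, 1.3% held a CArG box, 12.1% the TEAD motif and 63.5% an E-box. E-boxes stood in the windows of *Tln2*, *Ilk*, *Parva*, *Ptk2* and *Zyx*, and those of *Tln1* and *Fermt2* held none of the motifs. GC content was 64.8% for *Lims1* and 67.2% for *Vcl*, against 47.2% for *Tln2* and a median of 54.0% over all windows. A match describes the letters only.

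Several libraries went against their labels. *Lama2*, the targeted gene, was at 90.6 to 111 normalized counts in the WT libraries and at 4.29 and 6.07 in dyW1 and dyW2, but at 139.7 in the third library of the group, which is therefore named the library labelled dyW3. The WT values of *Lama2* came from 17 to 51 reads, which are set against the level of receptor genes below. The 12 myofiber markers summed to between 2767 (WT1) and 79969.8 (WT3) normalized counts in WT, to 10747 in dyW2 and 6469 in the library labelled dyW3, but to 69.9 in dyW1, where 5 of the 12 had no read. In WT1, 5 cartilage genes summed to 433621 normalized counts, against 140.2 to 7908 in the other WT libraries and 19.7 to 419 in the dyW libraries. The reads counted on genes numbered 470804 to 2220813 in WT and 3663905 to 18297106 in the dyW libraries, so that 1 read was worth 2.05 to 5.33 normalized counts in WT and 0.0974 to 0.488 in dyW. Despite their greater depth, the dyW libraries had reads on fewer genes, 17790 in dyW1, 14209 in dyW2 and 19360 in the library labelled dyW3, against 25530 to 29594 in WT. The reads come from PCR-amplified cDNA without molecular identifiers, so any interval or limit from reads covers counting error only.

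The 10 genes together took a small part of each library. WT1 to WT4 held 198, 395, 373 and 362 reads of them, and dyW1 to dyW3 held 15165, 10943 and 2235. Per 1000000 reads on genes this was 421 (95% exact binomial interval 364 to 483), 268 (242 to 295), 168 (151 to 186) and 205 (185 to 228) in the WT libraries by number. The dyW libraries held 1056 (1039 to 1073), 598 (587 to 609) and 610.0 (585 to 636), all above every WT library. This was not particular to the set. With each library scaled to the same total, the median log2 difference of genes with a mean from 50 to 1000 normalized counts was 1.34. That of the tested members was 1.17. The 10 most abundant genes of each library took 43.3 to 77.3% of it in WT and 16.4 to 37.6% in dyW. On the deposited scale the groups overlapped, and the summed normalized count averaged 1006 ± 165 (SD, n = 4) for WT against 1318 ± 202 (SD, n = 3) for dyW. The deposited scaling and the total of reads therefore place the set differently, and both are given where a direction depends on it.

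Of the 10 genes, 9 passed the filter on low values, a mean normalized count of at least 5 over the 7 libraries. They were compared with limma on log2(normalized count + 1), with Benjamini-Hochberg adjustment over all 25791 genes tested. A gene is termed called where its adjusted *P*-value was under 0.01 and its log2 difference beyond 1.5 in either direction. None of the 9 was called in either direction, and 4 had an unadjusted *P*-value under 0.05, as did 44.3% of all genes tested and 19.6% of those with a mean from 50 to 1000 normalized counts. Of all genes tested, 18.7% were called lower and 0.0659% higher, and of the 6005 genes with a mean from 50 to 1000 normalized counts, the range that holds all 9, 2.43% and 0.283%. Of the 4830 genes called lower in the whole table, 99.0% had a dyW mean under 5 and so passed the filter only through WT, which was the case for 0 of the 9. At an adjusted *P*-value under 0.05, *Pxn* was lower and *Lims1* higher, where 29.6% of all genes were lower and 1.01% higher, and 5.0% and 4.05% of the genes from 50 to 1000. The median log2 difference of the 9 was 0.03, against -1.99 over all genes tested and 0.21 over those from 50 to 1000.

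**Figure D1:**
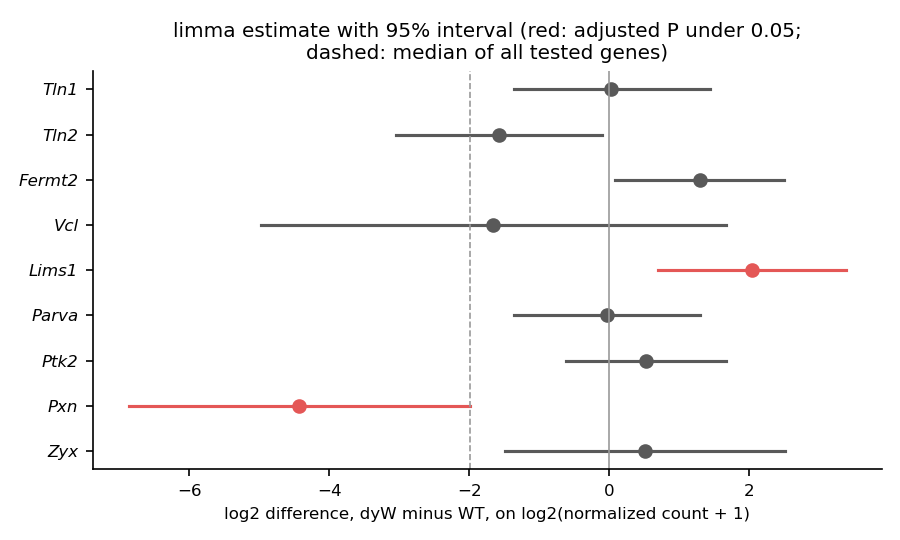
The log2 difference (dyW minus WT, x axis) of the 9 tested genes from limma, with its 95% interval, where red marks an adjusted *P*-value under 0.05 and the dashed line the median of all genes tested, -1.99. *Pxn* at -4.43 and *Lims1* at 2.04 are the 2 genes in red, and the other 7 lie between -1.66 and 1.29.

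In 4 of the genes the groups did not overlap. Every dyW library was below every WT library for *Pxn* and *Tln2*, and above every WT library for *Lims1* and *Fermt2*. Of all genes tested, 31.5% had every dyW library below every WT library and 3.28% the reverse, and of the genes from 50 to 1000, 6.74% and 12.4%. With 4 libraries against 3, the smallest *P*-value of the exact two-sided permutation test is 0.0571, which these 4 genes reached.

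**Figure D2:**
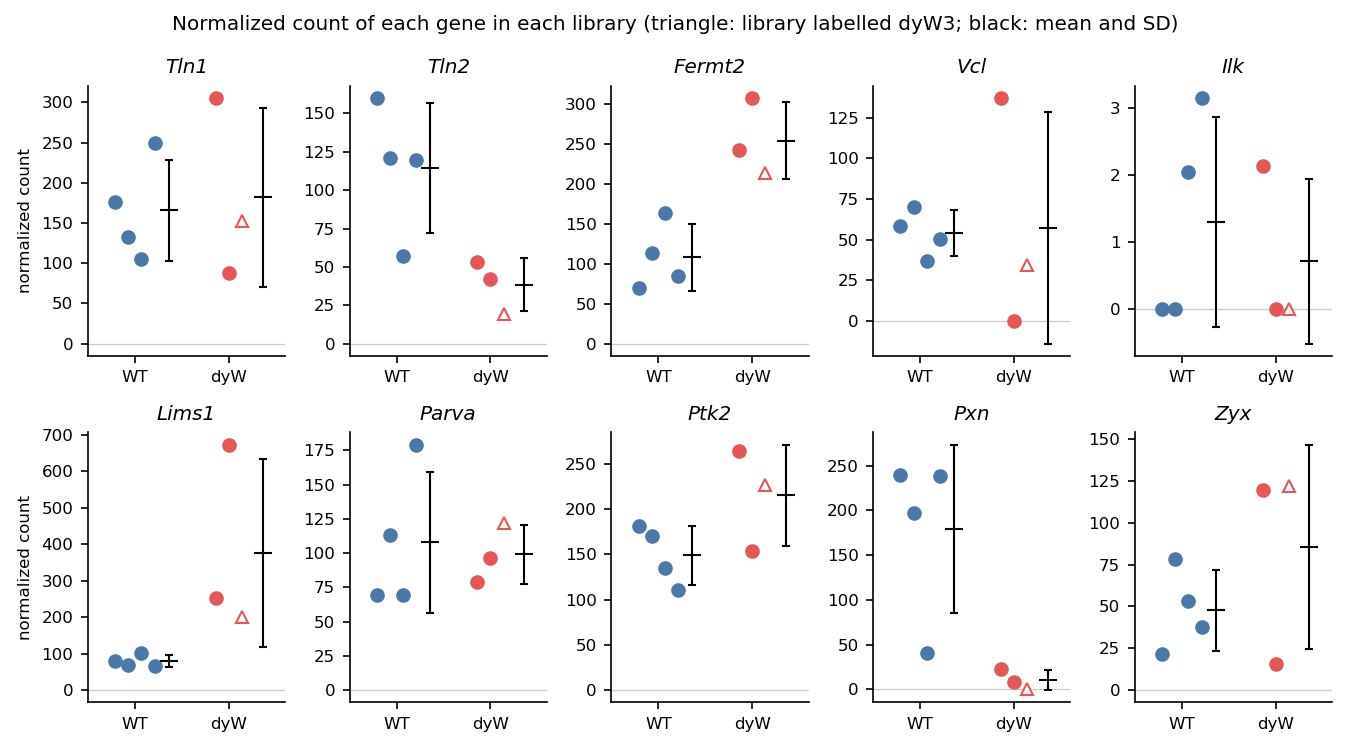
Normalized count (y axis, a scale for each gene) of the 10 genes in the WT and dyW libraries, in order of replicate number, with the group mean and SD in black and the library labelled dyW3 as an open triangle. The groups are apart for *Tln2*, *Fermt2*, *Lims1* and *Pxn*, and *Vcl* spans 0 to 137 normalized counts within dyW.

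Among the linkers that bind integrins directly, neither the 2 talin genes nor the kindlin gene *Fermt2* passed a threshold on the adjusted *P*-value. *Tln2* was lower and *Fermt2* higher in every dyW library than in every WT library. *Tln1* encodes talin 1, the form found in nearly all cells. WT1 to WT4 held 176, 132, 105 and 249 normalized counts of *Tln1*, and dyW1 to dyW3 held 305, 88.4 and 152. The dyW range covered the whole WT range, and the log2 difference was 0.03 (SE 0.615, 95% interval -1.36 to 1.43, limma adjusted *P*-value of 0.974). In bulk RNA, fewer cells of a type and less RNA per cell cannot be told apart, for this and every gene below.

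*Tln2* encodes talin 2, the form enriched in striated muscle and found at costameres. The 4 WT libraries held 159.9, 121, 57.4 and 119.6 normalized counts of it by number, and the 3 dyW libraries 53.5, 42.2 and 19.5, so the highest dyW value lay just under the lowest WT value. The log2 difference was -1.57 (SE 0.649, 95% interval -3.05 to -0.10) with a limma adjusted *P*-value of 0.0932, which missed the threshold of 0.05. Without the library labelled dyW3 it was -1.16 (limma adjusted *P*-value of 0.176). The difference was -1.84 after quantile normalization, -1.25 with voom on the deposited size factors, -0.45 when each library was given the same total of reads and 0.01 with voom on total reads, none past the threshold. It was 2.28, also not past it, once the level of receptor genes described below was subtracted over the length of all annotated exons.

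The log2 ratio of *Tln1* to *Tln2* within a library, which needs no scaling between libraries, was 0.14, 0.12, 0.85 and 1.05 in WT1 to WT4 and 2.49, 1.05 and 2.90 in dyW1 to dyW3. The WT mean was 0.54 ± 0.48 (SD, n = 4) and the dyW mean 2.15 ± 0.97 (SD, n = 3), a difference of 1.61 whose groups touched at WT4 and dyW2 (exact two-sided permutation test, *P* = 0.114, 0.19 after adjustment over the 10 ratios examined). With the receptor level subtracted the difference was -1.70 (exact permutation *P* = 0.343).

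*Fermt2* encodes kindlin-2, the kindlin of muscle and connective tissue, which binds integrin tails beside talin. Its normalized count was 69.3, 113, 164 and 85.0 in WT1 to WT4, and 242, 307 and 213 in dyW1 to dyW3. Every dyW library was higher, by 2.36-fold in the means. The log2 difference of 1.29 (SE 0.534, 95% interval 0.08 to 2.50) had a limma adjusted *P*-value of 0.0952. It kept its sign in all 18 alternatives, from 0.61 to 2.45, and passed 0.05 in 2 of them, with the same total (2.43, limma adjusted *P*-value of 0.0163) and with voom on total reads (2.45, 0.0357). In these 2 settings the median of genes with a mean from 50 to 1000 normalized counts also rose, to 1.34 and 1.43 from 0.21. The passes therefore add no support for *Fermt2* beyond that shift. Without the library labelled dyW3 it was 1.40 (limma adjusted *P*-value of 0.105).

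*Vcl* encodes vinculin, the actin-binding linker recruited to stretched talin. Its normalized count was 58.6, 70.1, 36.9 and 50.3 in the WT libraries, from 11 to 26 reads each. In dyW1 it reached 137 normalized counts from 1403 reads, in the library labelled dyW3 it was 34.7 from 71 reads, and in dyW2 it had 0 of 18297106 reads. A count of 0 allows up to 3 reads, or 0.379 normalized counts in dyW2, below every other library. The library dyW2 also had reads on the fewest genes, and the part of this in its 0 was not tested. The log2 difference of -1.66 (SE 1.46, 95% interval -4.97 to 1.66, limma adjusted *P*-value of 0.414) rested on dyW2, without which it was 0.39 (limma adjusted *P*-value of 0.736), and its size depends on the pseudocount, being -2.75 with 0.1 and -0.64 with 10. The means, 54.0 ± 14.0 (SD, n = 4) and 57.1 ± 71.1 (SD, n = 3) normalized counts, differed by far less than the dyW spread. *Vcl* shares 24.6% of its exon bases with *Ap3m1* on the other strand, and *Ap3m1* was at 8.85 normalized counts in dyW2, its lowest library.

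In the complex of integrin-linked kinase, PINCH and parvin, *Lims1* was higher, *Parva* lay within the WT range and *Ilk* was almost unmeasured. *Lims1* encodes PINCH1, the LIM-domain adaptor that holds integrin-linked kinase. It stood at 80.0, 70.1, 101 and 66.1 normalized counts in WT1 to WT4, a narrow range from 15 to 49 reads. It stood at 253 in dyW1, 672 in dyW2 and 201 in the library labelled dyW3, from 411 to 5310 reads. All 3 dyW libraries were above the highest WT library, and the means of 79.2 ± 15.4 (SD, n = 4) and 375 ± 258 (SD, n = 3) differed 4.74-fold. The log2 difference was 2.04 (SE 0.590, 95% interval 0.70 to 3.38, limma adjusted *P*-value of 0.0281).

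The difference of *Lims1* was above 0 in all 18 alternatives, from 1.43 to 3.55, and past 0.05 in 9 of them. Without the library labelled dyW3 it was 2.38 (limma adjusted *P*-value of 0.0177). It missed 0.05 without dyW2 (1.52, limma adjusted *P*-value of 0.0848), without WT2 (1.99, 0.0784), without WT4 (1.96, 0.0791) and without both WT1 and dyW1 (2.23, 0.0576). It missed it further with quantile normalization (1.43, 0.326), voom on the deposited size factors (2.07, 0.181) and the replicate block (1.96, 0.129). The other misses came with a mean of at least 50 (2.04, 0.109) and the receptor level subtracted (3.55, 0.107). The 8 markers of fibroblasts and tendon summed to 3412 to 10347 normalized counts in WT and to 9800.2, 23270.1 and 16442 in dyW1 to dyW3, so the groups overlapped. WT3 held more of them than dyW1, but less *Lims1*. The library dyW2 was highest for *Lims1* and these markers. It was also highest for markers of myogenic progenitors (538), smooth muscle and pericytes (713), and neural and Schwann cells (767). Of the 8 fibroblast and tendon markers, 2 had no read in dyW1 and 2 had none in the library labelled dyW3, while all had reads in every WT library. The part of fibroblasts and tendon cells in the levels of *Lims1* and *Fermt2* was not tested. Against *Lims2*, which encodes the related PINCH2, the log2 ratio of *Lims1* averaged 3.30 ± 2.14 (SD, n = 4) for WT against 6.88 ± 1.86 (SD, n = 3) for dyW, with overlap (exact two-sided permutation test, *P* = 0.114), and *Lims2* had no read in WT1 and the library labelled dyW3.

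*Parva* encodes α-parvin, the actin-binding member of the complex. Its normalized count was 69.3 to 179 in WT and 79.2 to 122 in dyW, so the dyW values lay inside the WT range. The log2 difference was -0.03 (SE 0.585, 95% interval -1.36 to 1.30, limma adjusted *P*-value of 0.974), and it was 1.11 with the same total (limma adjusted *P*-value of 0.211). The log2 ratio of *Parva* to *Parvb*, the β-parvin gene, averaged 1.84 ± 0.83 (SD, n = 4) for WT against 3.95 ± 1.85 (SD, n = 3) for dyW, with overlap (exact two-sided permutation test, *P* = 0.114).

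*Ilk* encodes integrin-linked kinase itself, the pseudokinase at the center of the complex. It had no read in WT1, WT2, dyW2 and the library labelled dyW3, 1 read each in WT3 and WT4, and 22 reads in dyW1. Its mean of 1.05 normalized counts was under the filter, so it was not tested. A count of 0 allows up to 15.994 normalized counts in WT1, 8.09 in WT2, 0.379 in dyW2 and 1.465 in the library labelled dyW3, so a low level was not detectable in WT at this depth. Exons of *Taf10* (77.4%) and *Rrp8* (13.0%), both on the opposite strand, cover 90.3% of the exon bases of *Ilk*, and the strand setting of the counting is not given in the sources used here. How reads on shared bases were counted is not given either, so the limits above cover only reads counted to *Ilk*. *Ilk* reads therefore cannot be told from those of its neighbors, and its level is uncertain. *Taf10* was at 14.4 to 59.8 normalized counts in WT and 19.9 to 56.2 in dyW.

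*Ptk2* encodes focal adhesion kinase, the tyrosine kinase that integrin clustering activates. Its normalized count was 181, 169.9, 135 and 110.1 in WT1 to WT4 and 264, 154 and 227 in dyW1 to dyW3, where dyW2 lay within the WT range. The log2 difference was 0.52 (SE 0.504, 95% interval -0.62 to 1.66, limma adjusted *P*-value of 0.458). It was below 0 in 1 of 18 alternatives, quantile normalization, at -0.25. The related kinase gene *Ptk2b* was at 10.7 to 35.1 normalized counts in WT, at 18.9 in dyW1 and without a read in the other 2 dyW libraries. The log2 ratio of *Ptk2* to *Ptk2b* averaged 2.70 ± 0.85 (SD, n = 4) for WT against 6.28 ± 2.22 (SD, n = 3) for dyW, with overlap (exact two-sided permutation test, *P* = 0.114). With *Ptk2b* at 0 in 2 dyW libraries, the difference of 3.59 depends on the pseudocount, being 5.76 with 0.1 and 1.68 with 10, and it was -0.05 after subtraction of the receptor level.

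*Pxn* encodes paxillin, the LIM scaffold onto which focal adhesion kinase and its partners assemble, and it had the largest difference of the set. WT1 to WT4 held 239.9, 197, 41.0 and 239 normalized counts of it, from 45, 73, 20 and 76 reads. The dyW libraries held 23.1, 8.09 and 0.488 by number, from 237, 64 and 1 reads, the last being the library labelled dyW3. WT3 was well under the other WT libraries yet above every dyW library. The means were 179 ± 94.3 (SD, n = 4) and 10.6 ± 11.5 (SD, n = 3) normalized counts, 17.0-fold higher in WT, and the log2 difference was -4.43 (SE 1.07, 95% interval -6.86 to -1.99, limma adjusted *P*-value of 0.0128).

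*Pxn* was lower in dyW in all 18 alternatives, from -5.33 to -2.53, and past 0.05 in 12 of them. Leaving out any 1 library kept it past 0.05, and without the library labelled dyW3 the difference was -3.32 (limma adjusted *P*-value of 0.0177). It missed 0.05 with the same total (-3.47, limma adjusted *P*-value of 0.0682), with voom on total reads (-2.53, 0.202) and with the receptor level subtracted (-3.63, 0.28). It missed it further with quantile normalization (-3.76, 0.0856), a mean of at least 50 (-4.43, 0.106) and the replicate block (-4.19, 0.0614). Against *Tgfb1i1*, which encodes the paxillin relative Hic-5 and averaged 47.0 normalized counts in both groups, the log2 ratio of *Pxn* was 3.12, 2.16, -0.57 and 2.06 in WT1 to WT4 and -0.76, -1.38 and -5.74 in dyW1 to dyW3. This ratio was the 1 of 10 whose groups did not overlap, although WT3 and dyW1 lay close, with a difference of -4.32 (exact two-sided permutation test, *P* = 0.0571, 0.19 after adjustment over the 10 ratios).

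*Zyx* encodes zyxin, which gathers at stretched actin filaments. It was at 21.3, 78.2, 53.3 and 37.8 normalized counts in WT1 to WT4, and at 119.6, 15.4 and 122 in dyW1 to dyW3. In dyW2 it was below every WT library and in the other 2 dyW libraries above. The log2 difference was 0.51 (SE 0.882, 95% interval -1.49 to 2.51, limma adjusted *P*-value of 0.689), and -0.29 without WT1 and dyW1. The log2 ratio of *Zyx* to *Lpp*, a gene of the same LIM family, was -3.40 to -1.22 in WT and -3.36 to -0.71 in dyW, and the means differed by -0.16 (exact two-sided permutation test, *P* = 0.971). Exons on the opposite strand, mostly of *Epha1*, cover 20.9% of its exon bases.

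**Figure D3:**
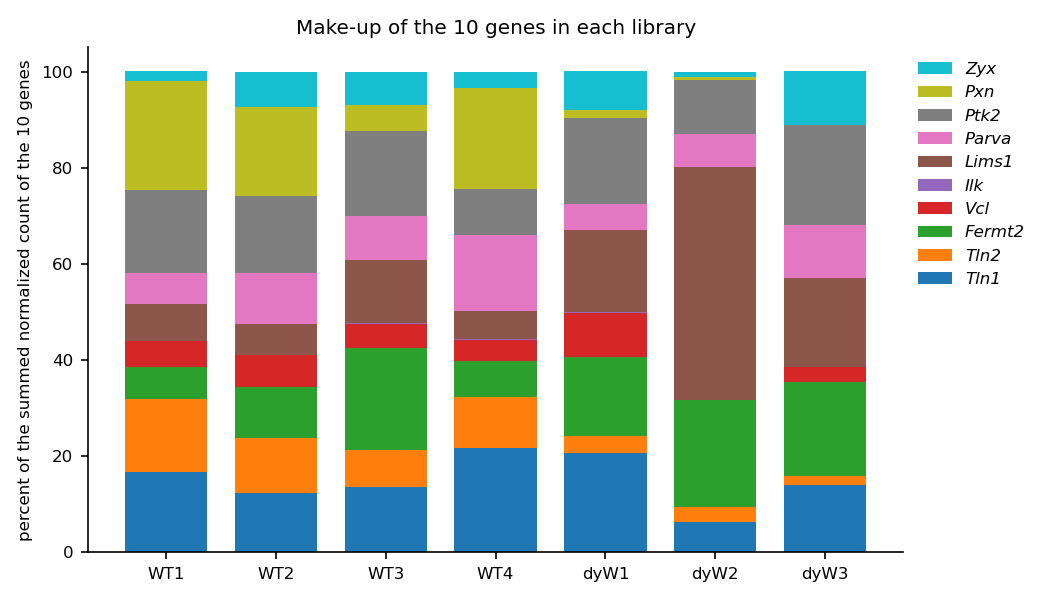
Percent of the summed normalized count of the 10 genes (y axis) that each gene took in each library, stacked to 100. *Pxn* and *Tln2* are narrower and *Lims1* wider in the 3 dyW libraries, *Lims1* reaches 48.5% in dyW2, and *Ilk* (0.276% at most) is too thin to see.

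As a share of the summed normalized count of the set, which does not depend on the scaling between libraries, *Pxn* took 16.9% ± 7.88 (SD, n = 4) of the WT sum and 0.731% ± 0.769 (SD, n = 3) of the dyW sum. *Tln2* took 11.1% ± 3.15 and 2.82% ± 0.937, and *Lims1* 8.27% ± 3.32 and 28.0% ± 17.8. These 3 shares did not overlap between the groups (exact two-sided permutation test, *P* = 0.0571 for each). The share of *Fermt2*, 11.5% ± 6.84 against 19.4% ± 2.93, overlapped because WT3 was at 21.4%. That of *Ptk2*, 15.1% ± 3.71 against 16.6% ± 4.95, overlapped as well.

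The order of the genes was set by levels per length, as normalized counts per kb of the canonical transcript. In WT, *Pxn* was highest at 39.1 ± 20.6 per kb, followed by *Ptk2* at 31.5 ± 6.88, *Fermt2* at 30.8 ± 11.9, *Parva* at 23.9 ± 11.5, *Tln1* at 19.7 ± 7.48, *Lims1* at 17.4 ± 3.39, *Zyx* at 14.3 ± 7.26, *Vcl* at 9.85 ± 2.55 and *Tln2* at 9.44 ± 3.49 (SD, n = 4). No 2 neighbors in this order were further apart than the larger of their SDs, except *Tln2* and *Ilk*, which was last at 0.70 ± 0.843. Neighbors share 90.3% of the exon bases of *Ilk*, so its place in the order is uncertain. In dyW the order began with *Lims1* at 82.6 ± 56.8, *Fermt2* at 72.6 ± 13.8 and *Ptk2* at 45.5 ± 11.8 (SD, n = 3), while *Pxn* stood ninth at 2.30 ± 2.51. There the steps from *Fermt2* to *Ptk2* and from *Ptk2* to *Zyx* exceeded the spread.

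How far these counts stood above reads that do not come from expression was gauged with 1208 odorant and vomeronasal receptor genes, most of which muscle is not known to use. Their median was 0.708 to 2.627 reads per kb of canonical transcript in the WT libraries and 1.147 in the library labelled dyW3, but 0 in dyW1 and dyW2. At that level, *Tln2* held 1.25 to 3.49 times the receptor reads in WT, *Vcl* 1.48 to 2.83 times, *Zyx* 1.70 to 4.22 times, *Lims1* 2.18 to 5.83 times and *Parva* 3.55 to 6.42 times. *Pxn* held 13.9, 6.06, 2.36 and 8.42 times in WT1 to WT4 but 0.19 times in the library labelled dyW3. Over all annotated exons in place of the canonical transcript, the WT multiples were 0.668 to 1.56 for *Zyx*, 0.885 to 1.61 for *Parva*, 0.864 to 2.59 for *Tln2*, 1.01 to 2.04 for *Vcl*, 1.17 to 3.10 for *Lims1* and 1.14 to 7.18 for *Pxn*. By this length, *Zyx*, *Parva* and *Tln2* were at or under the level of the receptor genes in at least 1 WT library. By the canonical transcript, every WT multiple of these 6 genes was above 1, with the lowest in *Tln2*, *Vcl* and *Zyx*. In the library labelled dyW3 the multiples were 2.87 for *Tln2*, 11.3 for *Vcl*, 78.9 for *Lims1*, 85.7 for *Ptk2* and 109 for *Fermt2*. *Lama2* held 1.61 to 2.85 times in WT and 25.7 times in the library labelled dyW3. Over all annotated exons its multiples were 0.926 to 1.62 in WT and 14.9 in that library. The subtraction given above used the length over all annotated exons. By that length the receptor median was 0.632 to 2.482 reads per kb in the WT libraries and 1.075 in the library labelled dyW3. It was 0 in dyW1 and dyW2, so the subtraction could not lower these libraries. The part of reads that do not come from expression in the differences was not tested beyond this subtraction.

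**Figure D4:**
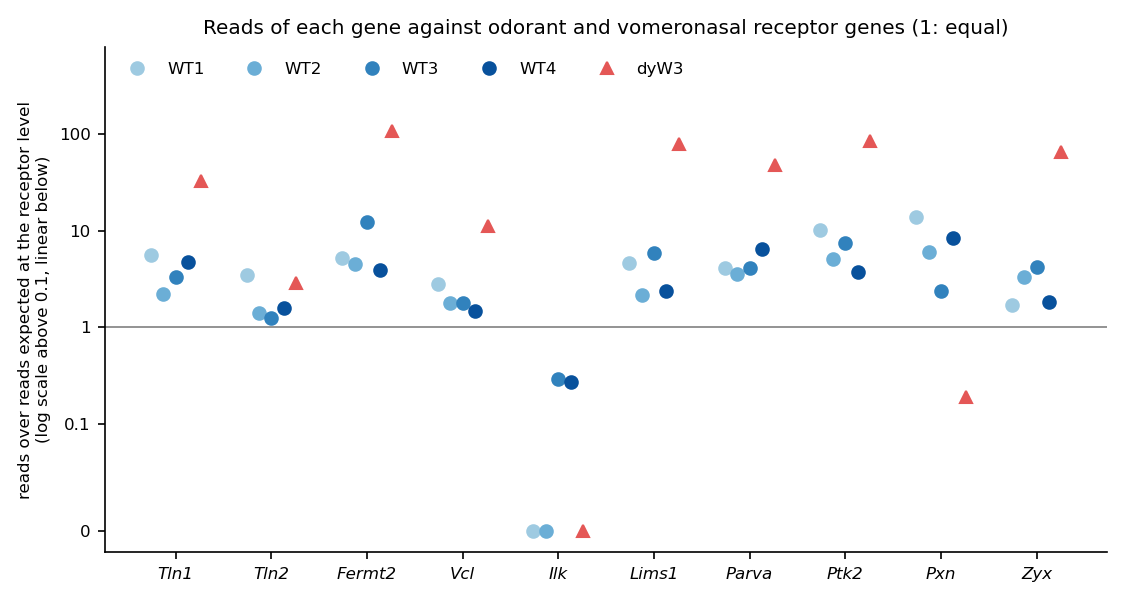
Reads of each gene divided by the reads it would hold at the median level of receptor genes (y axis, logarithmic above 0.1), in the 4 WT libraries (blue circles) and the library labelled dyW3 (red triangles); dyW1 and dyW2, with a receptor level of 0, are not drawn. Most WT values lie between 1 and 10, *Ilk* lies below 1 and *Tln2*, *Vcl* and *Zyx* come nearest to 1 from above, and *Pxn* drops to 0.19 in the library labelled dyW3.

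The partners of these proteins were taken from 4 lists with 86 genes, all of which passed the filter. Of the 86, 3 were called lower and 0 higher, and at a limma adjusted *P*-value under 0.05, 8 were lower and 2 higher. Of all genes tested, 18.7% and 29.6% were lower by these rules. The 3 called partners had means under 50 normalized counts. All 3 also had dyW means under 5, so they passed the filter only through WT, as did 5 of the 8, and these counts support no direction. Of the 60 partners with a mean from 50 to 1000, 0 were called, and 2 were lower and 2 higher at 0.05, beside 5.0% lower and 4.05% higher among all genes of that range. Of these 60, 11 had an unadjusted limma *P*-value under 0.05, as did 19.6% of all genes of that range. Without WT2, WT4 or dyW2, and with the same total, 0 of the 86 were called, as was no gene of the whole table. The median log2 difference was -1.69 over 15 paralogs of the members, -0.37 over 15 integrin-side genes, -0.45 over 24 actin-side genes and 0.35 over 32 signalling genes.

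Among the paralogs, the 2 called genes were *Fermt1*, the kindlin of epithelia, and *Parvg*, the parvin of blood cells. Both passed the filter only through WT, so their values are a description, and with the receptor level subtracted neither was called. *Fermt1* went from 18.5 to 43.1 normalized counts in WT to 0 in dyW1 and dyW2 and 2.93 in the library labelled dyW3, with a log2 difference of -4.19. *Parvg* was at 6.15 to 34.6 normalized counts in WT, from 2 to 11 reads, and had no read in any dyW library. Against 3 reads in each dyW library it was at least 28.5-fold lower. At 0.05, 5 of the 15 paralogs were lower, where 29.6% of all genes tested were lower, and 0 higher, the others being *Fermt3*, *Ajuba* and *Fblim1*, named after their values were seen. All WT counts of *Fermt1* and *Parvg* came from 16 reads or fewer.

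The integrin subunits did not share a direction. *Itga3*, the α3 subunit of a laminin receptor, was at 12.3 to 59.3 normalized counts in WT, from 5 to 22 reads, and at 0, 0 and 4.40 in dyW1 to dyW3. It was the 1 called gene of its list, but it passed the filter only through WT and was not called with the receptor level subtracted. *Itga7*, the α7 subunit of the main laminin receptor of muscle, was at 53.3 to 98.5 normalized counts in WT and at 43.2, 16.7 and 0.977 in dyW1 to dyW3, without overlap, and its log2 difference of -2.76 missed the threshold (limma adjusted *P*-value of 0.0696). *Itgb1*, the β1 subunit that pairs with both, was at 151 to 496 normalized counts in WT and 449 to 1024 in dyW (log2 difference 1.54, limma adjusted *P*-value of 0.0676).

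On the actin side, the α-actinin gene *Actn3* of fast fibers was the 1 gene of 24 lower at 0.05. Its normalized count averaged 23.7 in WT, from 4 to 13 reads, and 4.41 in dyW, so it too passed the filter only through WT. *Actn2*, the α-actinin of the Z-disc, was at 48.0 to 82.1 normalized counts in WT, at 85.2 in dyW2, at 0 in dyW1 and at 0.488 in the library labelled dyW3, and its difference of -3.79 had a limma adjusted *P*-value of 0.0726. *Flnc*, the filamin of muscle, was lower in all 3 dyW libraries (64.4 to 102) than in WT (112 to 173), with a difference of -0.74 and a limma adjusted *P*-value of 0.310. *Enah*, whose product Mena promotes the growth of actin filaments, went the other way, at 107 to 164 normalized counts in WT and 218 to 573 in dyW without overlap (log2 difference 1.27, limma adjusted *P*-value of 0.103). The filamin gene *Flna* was at 74.6 to 164 normalized counts in WT and 156 to 582 in dyW, with overlap (1.25, 0.154). Both were named after their values were seen. The myofiber markers also fell short in dyW1, and their part in these values was not tested.

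Of the signalling genes, *Apbb1ip*, whose product RIAM brings talin to integrins, averaged 62.9 normalized counts in WT, from 10 to 31 reads, and 3.51 in dyW, and likewise passed the filter only through WT. *Rap1b*, the small GTPase upstream of RIAM and talin, was higher, at 646 to 2222 normalized counts in dyW against 119.6 to 663 in WT, with overlap (log2 difference 2.20, limma adjusted *P*-value of 0.0388). *Rock2*, a kinase that raises actomyosin tension, was also higher, with 291, 349 and 498 normalized counts in dyW against 88.2 to 146 in WT (log2 difference 1.57, limma adjusted *P*-value of 0.0397), a gene named after its values were seen. Neither *Rap1b* nor *Rock2* passed 0.05 without WT1, WT2, WT4 or dyW2, where 0 partners were higher. The kinase gene *Src* (log2 difference -2.91, limma adjusted *P*-value of 0.0949) and the docking protein gene *Bcar1* (-1.77, 0.207), both partners of focal adhesion kinase and paxillin, did not pass. Markers of leukocytes and platelets, in which *Parvg*, *Fermt3* and *Apbb1ip* are also used, summed to 159.9 to 620.2 normalized counts over 8 genes in WT and to 68.8, 362 and 871 in dyW1 to dyW3, with overlap.

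**Figure D5:**
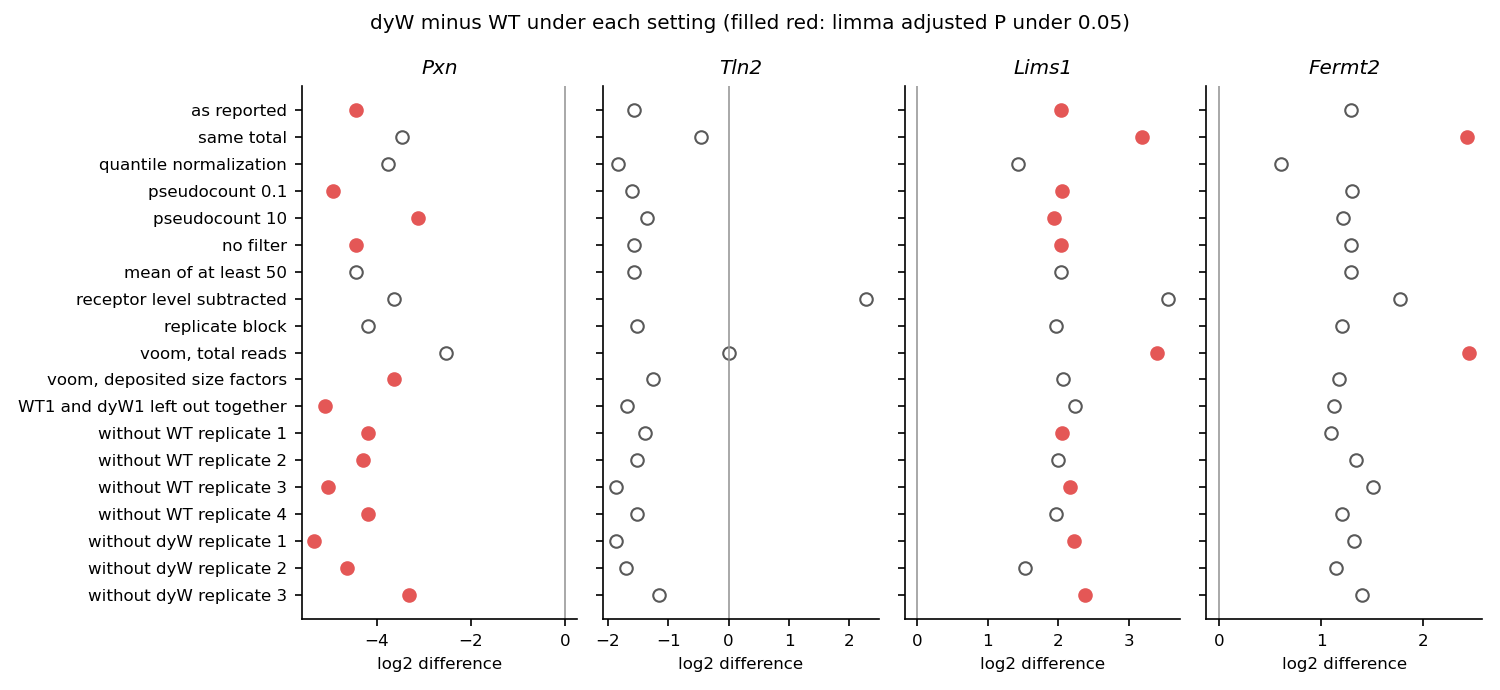
The log2 difference (dyW minus WT, x axis) of *Pxn*, *Tln2*, *Lims1* and *Fermt2* under the reported setting and each of 18 alternatives, filled red where the limma adjusted *P*-value was under 0.05. *Pxn* stays below 0 and *Lims1* and *Fermt2* above 0 in each row, whereas *Tln2* crosses to 2.28 with the receptor level subtracted.

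The plot of the 4 genes across settings can be read against the median of all genes, which the scaling also moved. The median of all genes tested was -1.99 with the deposited scaling, -1.24 with the same total and -0.15 after quantile normalization. In the same order, the log2 difference was 2.04, 3.18 and 1.43 for *Lims1*, 1.29, 2.43 and 0.61 for *Fermt2*, -1.57, -0.45 and -1.84 for *Tln2*, and -4.43, -3.47 and -3.76 for *Pxn*. *Lims1* and *Fermt2* were above the median and *Pxn* below it by all 3 scalings, while *Tln2* was above it by the first 2 and below it after quantile normalization. Against the median of genes with a mean from 50 to 1000 normalized counts, which was 0.21, 1.34 and 0.08 in the same order, *Lims1* and *Fermt2* were above and *Tln2* and *Pxn* below by all 3. With the receptor level subtracted this median was 1.85. There *Lims1* (3.55) and *Tln2* (2.28) were above it, and *Fermt2* (1.77) and *Pxn* (-3.63) below.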

How the data were processed

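For trimming the authors used Cutadapt, for alignment to GRCm39 RNA STAR, and for counting uniquely mapped reads FeatureCounts. They deposited, for each gene, the count divided by 1 size factor per library. The annotation release, strand setting and tool versions are not given in the sources used here. Of these values, 100% lay within 0.01 of a whole read, which gave the depth (470804 to 18297106 reads). A deposited table of the authors' DESeq2 comparison holds fold changes and p-values and was not used. Of 31531 genes, 99.2% had an identifier in GENCODE M39.

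Groups follow the genotype labels. Genes with a mean of at least 5 were compared on log2(normalized count + 1) by lmFit and eBayes (trend) of limma 3.58.1 under R 4.3.3, with Benjamini-Hochberg adjustment, after a test on simulated data. For single values, exact two-sided permutation tests over libraries were run. Scripts ran in Python 3.11.15 with pandas 2.3.3, numpy 2.4.6, matplotlib 3.10.9 and scipy 1.17.1. The genes, lists and tests were chosen with earlier results of these data known. Named genes are the 10 members, both genes of each ratio, *Lama2*, the called partners (or those with the 2 lowest adjusted *P*-values of a list), and *Itgb1*, *Itga7*, *Actn2*, *Flnc*, *Bcar1* and *Src*. Genes whose exons overlap a member, and those said to be named after their values were seen, fall outside this rule. The promoter window of 1 member is not reported here. Alternatives were scaling to the same total, quantile normalization, pseudocounts of 0.1 and 10, no filter or a mean of at least 50, subtraction of the receptor level per kb of exon, a replicate block, each library left out, and an adjusted *P*-value under 0.05 alone. Voom in limma on the recovered reads, with total reads or the deposited size factors, and leaving out WT1 with dyW1 were chosen after seeing the data.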

Additional observations from a re-analysis of the deposited data

How the results depend on the processing

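No member was called in either direction under any alternative that kept both thresholds of a call. This says little about the members, since 0 genes of the whole table were called with the same total, a pseudocount of 10, a mean of at least 50, the receptor level subtracted, WT1 and dyW1 left out, or without WT2, WT4 or dyW2, and 2 with quantile normalization and 1 with the replicate block. With the other choices as reported, an adjusted *P*-value under 0.05 with no fold threshold gave 1 lower (*Pxn*) and 1 higher (*Lims1*). At an adjusted *P*-value under 0.05, the count of lower members was 0 with the same total, quantile normalization, a mean of at least 50, the receptor level subtracted, the replicate block and voom on total reads, and 1 in the others. The count of higher members was 2 with the same total and with voom on total reads. It was 0 with quantile normalization, a mean of at least 50, the receptor level subtracted, the replicate block, voom on the deposited size factors, and WT1 and dyW1 left out together, and it ranged from 0 to 1 with a library left out (0 without WT2, WT4 or dyW2). The mean of at least 50 leaves 6111 genes in the test.

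Of the 86 partners, 3 were called lower, all of which passed the filter only through WT. The count was 0 with the same total, quantile normalization, a pseudocount of 10, a mean of at least 50, the receptor level subtracted, the replicate block, and WT1 and dyW1 left out. It was 1 with either voom, 0 to 4 with a library left out (0 without WT2, WT4 or dyW2, 1 without WT1 or dyW1, 4 without the library labelled dyW3), and 8 at an adjusted *P*-value under 0.05 alone. The count called higher was 0, against 1 with voom on total reads, 0 to 1 with a library left out (1 without the library labelled dyW3) and 2 at 0.05 alone. At 0.05 the count of lower partners was 8, against 3 with the same total, 4 with a pseudocount of 0.1, 1 with voom on total reads, 2 with voom on the deposited size factors, 3 to 14 with a library left out (14 without dyW1), and 0 with quantile normalization, a mean of at least 50, the receptor level subtracted and the replicate block. The count of higher partners was 2, against 13 with the same total, 6 with voom on total reads, 0 to 7 with a library left out (7 without the library labelled dyW3, 0 without WT1, WT2, WT4 or dyW2), and 0 with quantile normalization, a pseudocount of 10, a mean of at least 50, the receptor level subtracted, the replicate block, voom on the deposited size factors, and WT1 and dyW1 left out. The cause of these changes was not tested.

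*Pxn*, *Lims1* and *Fermt2* kept their direction throughout. The settings also moved the median log2 difference of genes with a mean from 50 to 1000 normalized counts. It was 0.21 as reported, 1.85 with the receptor level subtracted, 1.34 with the same total and 1.43 with voom on total reads. A turn to above 0 in these settings is therefore not particular to the gene. Values whose direction turned, none past 0.05, were as follows. With the receptor level subtracted the log2 difference was 0.96 for *Vcl*, 2.28 for *Tln2* and 4.27 for *Parva*, and the difference in log2 ratio was -1.70 for *Tln1* to *Tln2*, -0.05 for *Ptk2* to *Ptk2b*, 1.73 for *Zyx* to *Lpp* and 0.39 for *Vcl* to *Tln1*. With quantile normalization it was -0.73 for *Tln1* and -0.25 for *Ptk2*, with the same total 1.11 for *Parva*, and with voom on total reads 0.01 for *Tln2* and 1.11 for *Parva*. Without WT1 and dyW1 it was -0.38 for *Tln1* and -0.29 for *Zyx*. With a library left out, *Tln1* ranged from -0.43 to 0.46, *Parva* from -0.20 to 0.25, *Vcl* from -3.17 to 0.39 (above 0 without dyW2), the ratio of *Zyx* to *Lpp* from -0.90 to 0.42 and that of *Ilk* to *Parva* from -1.04 to 0.10.

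With the replicate block, *Pxn* was at -4.19 (limma adjusted *P*-value of 0.0614), *Lims1* at 1.96 (0.129) and *Parva* at 0.25 (0.85). The numbers 1 to 3 are shared by WT and dyW libraries, but the deviations of same-numbered libraries from their group means correlated at 0.38, 0.01 and -0.15 over 6111 genes, so the numbers were not taken as pairs. Over all 12 combinations the highest was 0.46, between WT3 and dyW2. These 2 libraries, like WT1 and dyW1, have nearby identifiers in the labels, as do WT2 with dyW1 (-0.17) and WT4 with dyW2 (-0.11). The labels do not say what the identifiers mark. The planned edgeR and DESeq2 alternatives were not run, and voom on the recovered reads took their place. Depth limits the WT values, where 1 read was worth 2.05 to 5.33 normalized counts and *Vcl* rested on 11 to 26 reads. The labels name no litter or day of collection and do not say that each library came from 1 fetus, so the *P*-values measure the spread between these samples, which may be technical.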
